A study of Rattus norvegicus with 98 samples.

Results

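The acetylation of histone H3 lysine 27 (H3K27ac) in the raphe of fluoxetine-treated rats was compared with that in vehicle-treated rats. The comparison used the 4 peak lists titled Raphe, 2 from fluoxetine-treated (FT) and 2 from control (Sham) animals, of 94 deposited lists that covered 25 brain regions. The rats were male Long-Evans animals of 2 months, whose drinking water carried fluoxetine over 6 weeks, to a daily dose of 18 mg per kg (FT), or held no drug over the same period (Sham). Each replicate was a pool of frozen tissue punches of several animals, the regions of a replicate shared their animals, and the sources name no transgene or other agent for either group. Chromatin was precipitated with an antibody to H3K27ac and sequenced, and regions of enrichment (peaks) were called in each library on its own.

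H3K27ac is deposited by acetyltransferases such as CBP and p300 at the nucleosomes that flank active promoters and enhancers, and a peak of the mark is read as an element in use in some of the cells of a tissue. The raphe nuclei of the midbrain, pons and medulla hold most serotonin neurons of the brain, and fluoxetine blocks the transporter by which these neurons take serotonin back up. The largest of them, the dorsal raphe, lies in the ventral part of the periaqueductal grey (PAG), which surrounds the cerebral aqueduct. The locus coeruleus (LC), the main noradrenergic nucleus, lies in the dorsal pons, and the nucleus of the solitary tract (Snt), which receives visceral input, lies in the dorsal medulla.

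The 4 lists held 47700 (Sham replicate 1), 43742 (Sham replicate 2), 52383 (FT replicate 1) and 46736 peaks (FT replicate 2). FT replicate 2 lay below Sham replicate 1, so the groups overlapped. The log2 ratio of FT to Sham peak number was 0.12 (exact permutation test over the 3 splits of 4 lists, two-sided p = 0.667). Since 4 lists split 2 against 2 in 3 ways only, the smallest p of this test is 0.33. None of the differences tested this way could pass 0.05, and the test ignores the pairing of replicate numbers. The median peak width was 1700, 1600, 1700 and 1700 bp in the same order, a log2 ratio of 0.04 (exact permutation p = 1). The peaks covered 81.7, 71.8, 89.7 and 77.0 Mb, a log2 ratio of 0.12 (exact permutation p = 0.667). The number of reads behind each list was unknown, and list length moves with depth as well as with acetylation, so the comparisons below were made on the full lists and on equal-size lists. In an equal-size list the 43742 peaks with the highest maxScore, the peak caller's score, were kept, which is the length of the shortest list. Cutting the lists left median widths of 1800, 1600, 1900 and 1700 bp, so replicate 1 was the wider of each pair.

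The region label was checked by the likeness of the lists. The genome was divided into 1 kb windows, a window was occupied where peaks covered at least 50% of it, and likeness was the Jaccard index, the share of windows occupied in both lists among those occupied in either. On equal-size lists the index was 0.727 between the Sham replicates and 0.738 between the FT replicates. The 4 pairs of an FT and a Sham list gave 0.666 to 0.729, on average 0.040 below the same-treatment pairs (exact permutation p = 0.33, the smallest possible). Sham replicate 1 went against its label, since it was more like all 4 Snt libraries (0.730 to 0.789) than like its own replicate. It was also more like at least 2 VTA libraries (0.733 and 0.730) and FT replicate 1 of Raphe (0.729). The other 3 lists had a Raphe list as their nearest of all. The lists also differed in how near they lay to other regions by treatment. The mean index with the 4 PAG libraries was 0.399 and 0.391 for the Sham lists, and 0.484 and 0.486 for the FT lists. With LC it was 0.563 and 0.549 for Sham, and 0.621 and 0.625 for FT. With Snt the order was the opposite, at 0.768 and 0.706 for Sham and 0.690 and 0.667 for FT. Both FT lists were nearer to PAG and LC than both Sham lists, and both Sham lists were nearer to Snt, although the gap between Sham replicate 2 and FT replicate 1 in Snt was smaller than that between the Sham replicates. In bulk tissue, fewer cells of a type and less acetylation per cell cannot be told apart, and an effect of fluoxetine and a difference in the tissue punched cannot be told apart here either.

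Windows that separated the treatments were counted next. A window was named gained when both FT lists and neither Sham list occupied it, and lost when the reverse held; the names describe a pattern and not a test. On the full lists 108224 windows were occupied in at least 1 of the 4 lists, and 55805 of them (51.6%) in all 4. There were 5686 gained windows, 5.25% of those occupied, and 2041 lost windows, 1.89%. The other splits of the same 4 lists served as the comparison. The split by replicate number also holds any difference in processing between the replicates, so it is not a pure level without treatment. Replicate 1 was separated from replicate 2 by 5117 windows, of which 4389 were held by the 2 lists of replicate 1, and the crossed split gave 2991. The treatment split was therefore the widest of the 3 on full lists, by 1.91-fold over the mean of the other splits (log2 0.93, exact permutation p = 0.33).

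On equal-size lists 102637 windows were occupied in at least 1 list and 54529 in all 4. The occupied windows numbered 78283 and 71704 in the Sham lists and 81738 and 74942 in the FT lists, so the groups still overlapped. There were 5019 gained windows (4.89%) and 2578 lost windows (2.51%), so that 66.1% of the separating windows were gained. The replicate split gave 4086 windows and the crossed split 2808, which the treatment split exceeded on average by 2.20-fold (log2 1.14, exact permutation p = 0.33). The excess grew among the strongest peaks. With the best 10000 peaks of each list, 1499 windows were gained (4.97%) and 1382 lost (4.58%), while the split by replicate gave 761 and the crossed one 569, a 4.33-fold excess. With the best 5000 peaks, 759 were gained and 838 lost, a 4.80-fold excess. The surplus of gained over lost windows was thus a property of the longer lists and was absent in the best 5000 peaks. Without Sham replicate 1, the lone Sham list differed from both FT lists by 10490 gained and 7481 lost windows on equal-size lists, a log2 excess of 0.60. Without Sham replicate 2 the numbers were 6517 and 7571, a log2 excess of 0.25, so the direction of the surplus turned on which Sham list was used.

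**Figure D1:**
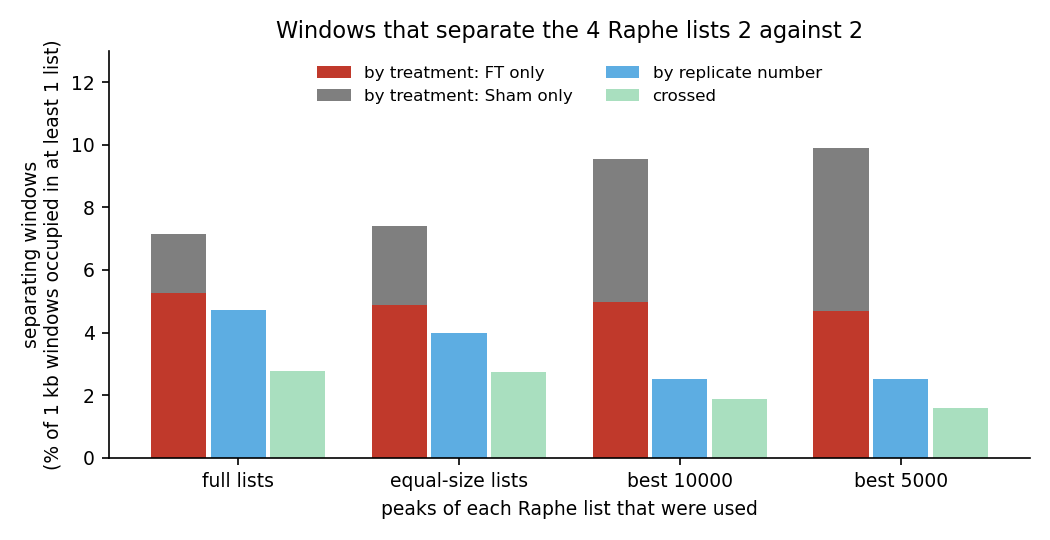
Share of the 1 kb windows occupied in at least 1 Raphe list (vertical axis, percent) that separated the 4 lists 2 against 2, by treatment (FT only, red, stacked with Sham only, dark grey), by replicate number (blue) or crossed (green), for 4 choices of peaks. The treatment split was the widest of the 3 for each choice, and its excess rose from 1.91-fold on full lists to 4.80-fold among the best 5000 peaks.

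Nearly all of these windows were in use in another region. A window was called active in a region when at least 1 of its lists occupied it. Of the 5019 gained windows, 5012 (99.9%, 95% Wilson interval 99.7 to 99.9) were active in at least 1 of the 24 other regions and 7 were in none. Of the 2578 lost windows, 2554 (99.1%, interval 98.6 to 99.4) were active elsewhere and 24 were not. Windows that differed among the 4 Raphe lists in some other way were active elsewhere in 96.8% of cases, so the changed windows were not unusual in this, and the intervals cover counting error only. Gained windows were active in few regions. They were active in a median of 5 other regions (interquartile range 2 to 12), and 36.7% of them in 1 to 3. Lost windows and the other discordant windows had a median of 9 regions each, and windows occupied in all 4 Raphe lists had a median of 24.

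The gained windows were those of PAG and LC. Of the gained windows 87.7% were active in PAG and 86.8% in LC, against 61.5% and 76.9% of all windows of Raphe. In every other region the share was lower than among all Raphe windows, from 37.1% in dorDG, the dorsal dentate gyrus, to 21.1% in NaCcore, the core of the nucleus accumbens. In Snt it was 31.9%, against 83.7% of all Raphe windows. Lost windows showed another set of regions. Of these 90.1% were active in Snt. The next were VTA at 73.3% and LH at 70.0%, the ventral tegmental area and lateral hypothalamus, where all Raphe windows reached 79.6% and 77.8%, so Snt alone lay above the share of all Raphe windows. Only 12.9% of the lost windows were active in PAG, and 38.2% in LC. Windows active in PAG or LC made up 92.4% of the gained, 41.0% of the lost and 80.1% of all Raphe windows.

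**Figure D2:**
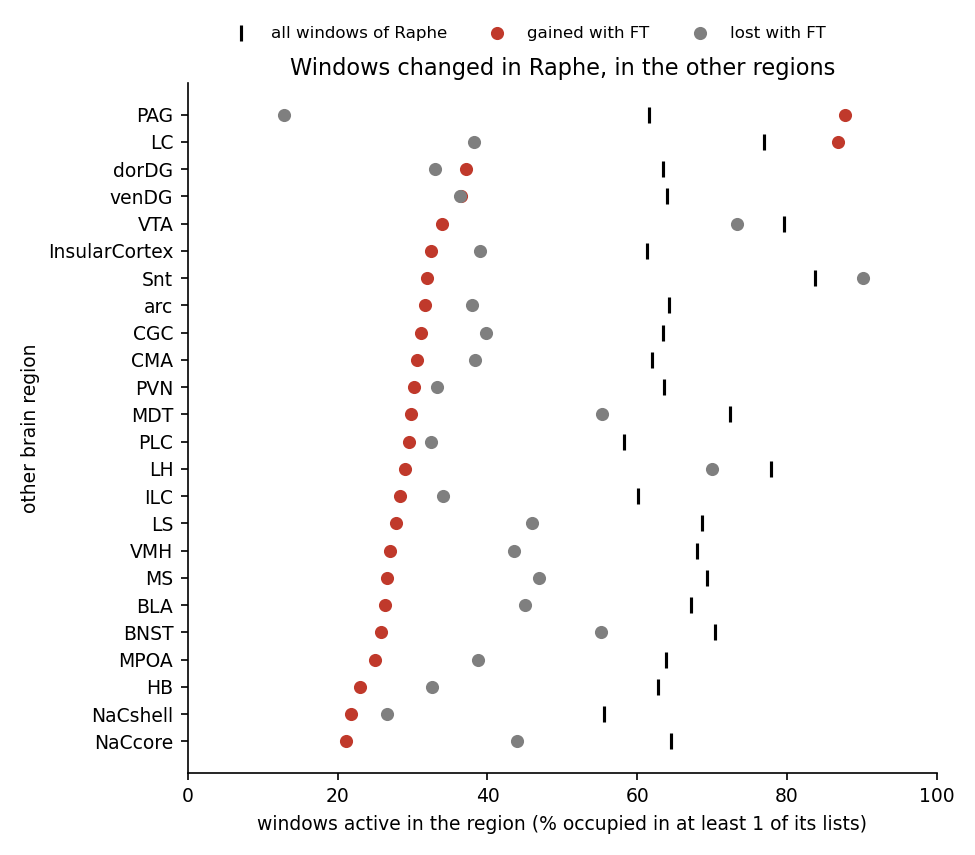
Share of windows active in each of the 24 other regions (horizontal axis, percent of windows occupied in at least 1 list of the region) for windows gained with FT in Raphe (red), lost with FT (grey) and all windows of the 4 Raphe lists (black bars), on equal-size lists, with regions ordered by the gained windows. PAG and LC stood above all other regions for the gained windows, at 87.7% and 86.8%, and Snt for the lost windows, at 90.1%.

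The same held in single libraries of both treatments. The 4 PAG libraries occupied 81.0% (Sham replicate 1), 68.5% (Sham replicate 2), 84.4% (FT replicate 1) and 82.7% (FT replicate 2) of the windows gained in Raphe. The 4 LC libraries occupied 79.1, 60.1, 75.5 and 55.5% of them. No other library exceeded 30.2%, so each library of PAG and LC lay above each of the remaining regions, Sham libraries included. The Snt libraries occupied 65.5, 54.7, 66.8 and 68.2% of the lost windows. The highest library outside Snt was FT replicate 1 of LH at 52.1%. The PAG libraries occupied between 2.40 and 8.38% of the lost windows. In the Sham lists alone the gained windows were thus occupied by 60.1 to 81.0% in PAG and LC.

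**Figure D3:**
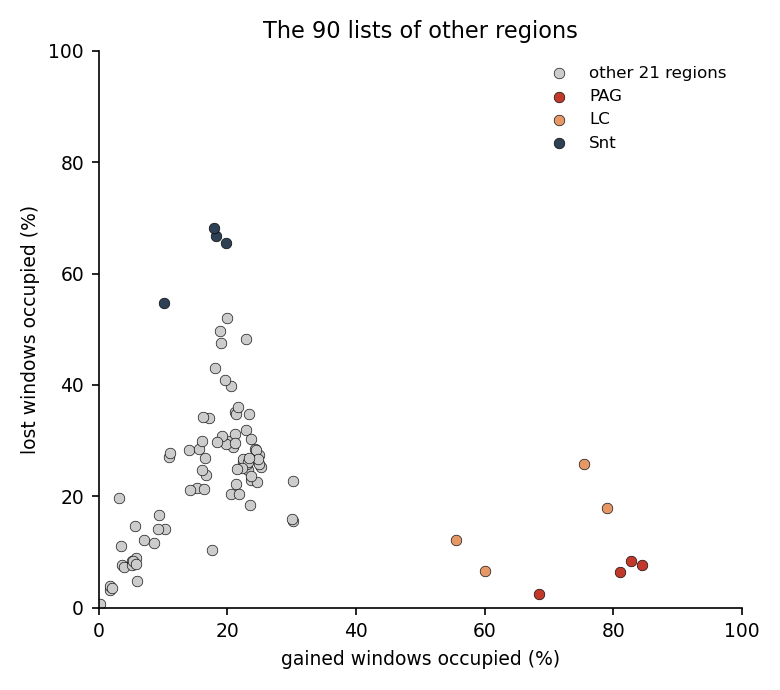
Each point is 1 of the 90 lists of other regions, by the share of the windows gained in Raphe (horizontal axis, percent) and of the windows lost in Raphe (vertical axis, percent) that it occupied. The 4 PAG and 4 LC lists lay at 55.5% or more of the gained windows with no other list above 30.2%, and the 4 Snt lists lay highest for the lost windows.

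The windows were next divided by their state in these 3 regions, a division chosen after the values above were seen. The 11435 Raphe windows active in PAG or LC and silent in Snt held 3341 gained windows, 66.6% of all gained, and 95 lost ones. In this class the log2 excess of the treatment split over the others was 3.29, since the replicates were separated by 373 windows and the crossed pairs by 330. The 15123 windows active in Snt and silent in PAG and LC held 305 gained and 1362 lost windows, 52.8% of all lost. Here the replicate split gave 1401 windows and the log2 excess was 0.46 on equal-size lists and 0.05 on full lists. Among the best 10000 peaks it was 2.35, with 1090 lost windows (78.9% of all lost there) and 251 in the replicate split. The 76079 windows whose state in PAG or LC equalled that in Snt held 1373 gained and 1121 lost windows. Their log2 excess was 0.40 on equal-size lists, 0.23 on full lists and 0.93 among the best 10000 peaks, against 1.14, 0.93 and 2.12 over all windows. Where these regions did not differ, the excess over the other splits was thus smaller. The regions were chosen by where these gained and lost windows were active, so the drop is not independent of that choice. On full lists the replicates were separated by 2848 windows of equal state, more than the 1721 gained and 862 lost windows together.

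Windows can also be defined by the lists of other regions alone. PAG, LC and Snt were still chosen by where the gained and lost windows of Raphe were active, so these sets are not independent of that choice. The 1452 windows that all 4 lists of PAG and all 4 lists of LC occupied, and no list of the other 22 regions, were occupied by 8.61% in Sham replicate 1 and 6.68% in Sham replicate 2 of Raphe. In FT replicates 1 and 2 the shares were 82.5% and 76.9%. Both FT lists exceeded both Sham lists by a wide margin, and the means differed by 72.0 points. Of these windows 823 were gained and 0 lost. Where windows only had to be silent in Snt, 3588 windows were occupied by 17.2 and 13.9% in Sham and by 85.5 and 79.8% in FT, a difference of 67.1 points. The 5222 windows held by all Snt lists and by no PAG or LC list gave 84.2 and 68.0% in Sham and 64.5 and 52.8% in FT. The groups did not overlap here, but FT replicate 1 minus Sham replicate 2 was only -3.52 points, a smaller gap than that between the Sham lists, and without Sham replicate 1 the difference of the means fell from -17.5 to -9.36 points. Windows common to PAG, LC and Snt (23712) were occupied by 98.7% or more in each Raphe list, so that the shared elements were found alike in all 4.

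**Figure D4:**
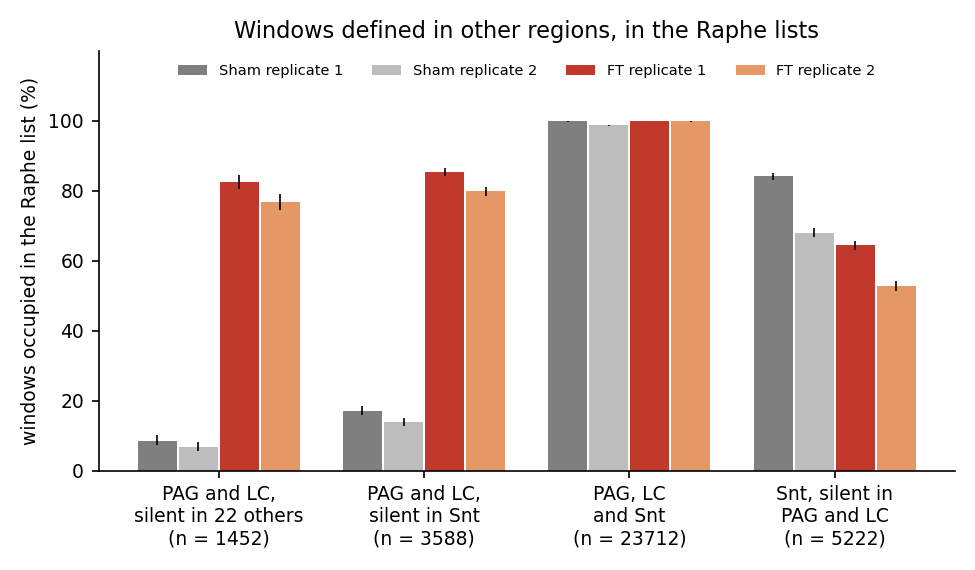
Share of windows occupied in each of the 4 Raphe lists (vertical axis, percent) for 4 sets of windows, on equal-size lists, with the number of windows (n) under each set. The set silent in 22 others was defined by the libraries of all 24 other regions, and the rest by those of PAG, LC and Snt. Lines on the bars are 95% Wilson intervals, which cover counting error only; windows of PAG and LC were at 8.61 and 6.68% in Sham and at 82.5 and 76.9% in FT, while windows of PAG, LC and Snt were near 100% in each list.

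The contrast held for other definitions of the sets. With the Sham libraries of the other regions alone, the windows of PAG and LC (3118) were occupied by 6.22, 5.04, 64.1 and 58.8% in Sham replicates 1 and 2 and FT replicates 1 and 2. With the FT libraries alone (2196 windows) the shares were 14.0, 10.9, 78.9 and 72.7%, and on full lists (1341 windows) they were 9.62, 5.97, 86.3 and 76.8%. Leaving out each Raphe list in turn moved the difference between 69.2 and 74.9 points. The same definition was applied to each region and each pair of regions with at least 50 windows of its own. Windows of PAG alone (653) were rare in all lists, at 0.15 and 0.46% in Sham and 7.50 and 7.20% in FT. Windows of Snt alone (83) stood at 49.4 and 36.1% in Sham and at 22.9 and 18.1% in FT. The other 5 sets, from insular cortex, CMA, MDT, dorDG and the dentate gyrus pair, differed by at most 0.18 points, so windows private to forebrain regions were absent from all 4 Raphe lists at 0.36% or less.

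The same sets were then followed in the 17 other regions with 4 lists. At the 3588 windows of PAG and LC silent in Snt, both FT lists lay above both Sham lists in 12 regions and below in 0, but the differences ran only from -1.48 to 13.6 points, against 67.1 in Raphe. At the windows of Snt both FT lists lay above both Sham lists in 11 regions, by up to 35.8 points in the medial septum (MS), and below in 1. The lists of these regions differed in length, and those under 43742 peaks were kept whole. In 10 of the 11 regions both FT lists also held more of the windows common to all 4 Raphe lists than both Sham lists did. The differences there were 5.78 to 34.8 points over the 11 regions and 29.0 in MS. Windows chosen in Raphe were more often occupied in FT elsewhere, whether gained or lost: over 20 regions with 4 lists, FT minus Sham occupancy averaged 8.16 points at the gained windows (above 0 in 19 regions) and 8.62 points at the lost windows (above 0 in 17). The difference between the 2 sets had no common direction. It averaged -0.46 points (SD 6.27, n = 20 regions, above 0 in 10, permutation test by sign flips p = 0.747). It was -1.98 points without replicate 1 and 1.06 without replicate 2, with p = 0.257 and 0.464 in permutation tests. These regions shared the pools of animals, so the p-values bear on these pools.

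Peaks that all 4 lists shared were compared by their scores and widths. Joining overlapping peaks gave 61617 elements, of which 35313 were found in every list and 34961 held exactly 1 peak of each. The deposited Norm-tag-count, a tag count scaled by the authors and rounded to whole numbers, was ranked to a common distribution and tested with limma. It was higher in FT at 124 elements (0.355% of those tested) and lower at 1 (0.00286%) at an adjusted p of 0.05. The unadjusted p was under 0.05 at 2905 elements in the higher and 2258 in the lower direction. Without FT replicate 1 or 2 limma called 0 elements, without Sham replicate 1 it called 731 and without Sham replicate 2 318. In these fits the lone list was assumed to vary like the remaining pair, which alone gave the spread. With maxScore in place of Norm-tag-count 560 elements were higher (1.6%) and 38 lower (0.109%). By rank within each list the Norm-tag-count fit called 0 elements. With same-numbered replicates as a block it called 216 higher and 3 lower. No element differed in peak width (0%; unadjusted p under 0.05 at 1950 wider and 1383 narrower elements, and 87 elements called when the spread was allowed to follow the mean).

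The order of the 4 lists at these elements separated the treatments more than the replicates. Both FT values lay above both Sham values in maxScore at 25.3% of the elements and below at 28.7%, together 54.1%, against 25.0% for the replicate split and 20.9% for the crossed one. For Norm-tag-count the shares were 22.4 and 25.9%, together 48.3%, against 27.6 and 24.1%. For peak width they were 17.5 and 24.5%, together 42.1%, against 35.9% in the replicate split, so width separated replicates nearly as often as treatments. All splits are of the same 4 lists, and the shares are a description.

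Elements of PAG and LC had the largest medians among the classes examined. At the 256 elements of PAG and LC silent in Snt the median log2 difference of FT to Sham was 0.77 in maxScore, 0.38 in Norm-tag-count and 0.68 in width, against -0.03, -0.02 and -0.03 over all elements. Both FT values exceeded both Sham values at 87.1, 71.9 and 86.7% of them, and limma called 88 higher in maxScore, 17 in Norm-tag-count and 0 in width. At the 39 elements private to PAG and LC the medians were 0.92, 0.39 and 0.90. The 1390 elements of Snt silent in PAG and LC had medians of -0.18, -0.09 and -0.17, and both FT values lay below both Sham values at 39.9% of them in maxScore. The 14820 elements of PAG, LC and Snt had medians of 0.09, 0.05 and -0.01. So the difference in score extended to peaks present in all 4 lists, with the same regions at its ends.

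**Figure D5:**
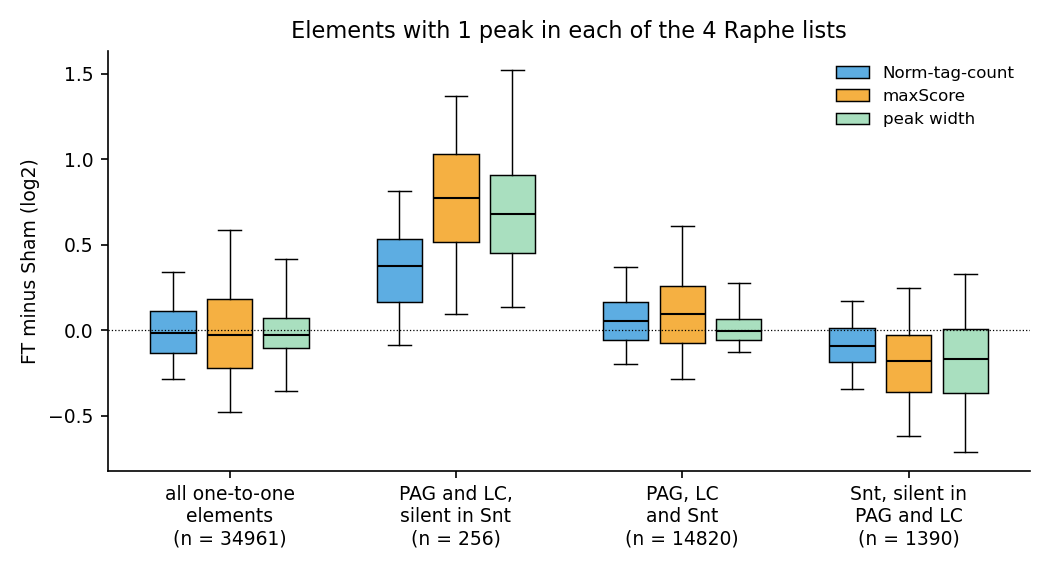
FT minus Sham difference (vertical axis, log2) of Norm-tag-count, maxScore and peak width at elements with 1 peak in each of the 4 Raphe lists, for all such elements and for 3 classes defined by other regions, with the number of elements (n). Boxes show the quartiles and median, and whiskers the 5th and 95th percentiles over elements; the class of PAG and LC silent in Snt had medians of 0.38, 0.77 and 0.68, and the median over all elements was within 0.03 of 0.

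The elements with the lowest p held small counts. At chr5:176120660-176124059 (rat build Rn5) the Norm-tag-count was 5 and 4 in Sham and 11 and 10 in FT, a log2 difference of 1.05 (SE 0.11, limma adjusted p = 0.038). At chr1:194846728-194848853 it was 5 and 4 against 11 and 10, a log2 difference of 1.06 (SE 0.11, limma adjusted p = 0.038). The counts of these 2 elements were the same, so their log2 values differ only by the random spreading of tied counts. With ties kept both were 0.98, and with another seed the latter was 0.89. At chr1:17034828-17036953 the Norm-tag-count was 3 and 2 against 6 and 6. The groups did not overlap at any of these, which choice by the lowest p favours. Over all elements 22.4% had both FT values above both Sham values. Of the 34961 elements, 14820 were of PAG, LC and Snt together. At the 5 elements with the lowest p in this direction all 4 PAG and all 4 LC lists held a peak. Of the Snt lists 4, 1, 1, 4 and 3 held one at these 5, and 15, 7, 6, 24 and 23 other regions did in all. Divided by peak width, the first of them had a log2 difference of 0.23 (limma adjusted p = 0.932), the next one 0.48 and the third 0.18, and by percentile none of these 3 passed (limma adjusted p = 0.221). The lower element that passed, chr8:46638705-46641304, had 8 and 7 in Sham and 5 and 4 in FT, a log2 difference of -0.71 (SE 0.10, limma adjusted p = 0.042). Per width it was -0.48 (limma adjusted p = 0.761). No PAG list held a peak there, while 3 LC lists, all 4 Snt lists and 21 other regions in all did. At the 5 lower elements with the lowest p, 0, 1, 4, 0 and 3 PAG lists held a peak. Of the LC lists 3, 2, 4, 0 and 4 did, and of the Snt lists 4, 4, 4, 4 and 2. The next of the lower elements, chr2:176165202-176166719, had 3 and 3 against 2 and 2 and an adjusted p of 0.051 by limma, which became 0.045 with the replicate block. Without the block its limma adjusted p was 0.136 with ties kept and 0.069 with ties spread by another seed. The lowest p for width was at chr12:19368202-19372905, where the peak spanned 1100 and 1100 bp in Sham and 3900 and 3500 bp in FT (log2 1.69, limma adjusted p = 0.269). At chr1:152571407-152572653 the peak spanned 1200 and 1100 bp in Sham and 600 and 500 bp in FT (log2 -1.08, limma adjusted p = 0.269). All 4 PAG and LC lists held the former element, and none of them the latter, which all 4 Snt lists held. At the 5 wider elements with the lowest p all 4 PAG and LC lists held a peak, and 2, 1, 0, 0 and 1 Snt lists. At the 5 narrower ones 0, 0, 4, 0 and 0 PAG lists did, with 0, 0, 3, 2 and 0 LC lists. Of the Snt lists 4, 3, 4, 4 and 4 held these narrower ones. Among all 34961 elements, 256 were of PAG and LC and silent in Snt. The reverse class, of Snt and silent in PAG and LC, held 1390. The share of all elements that matches each of these list counts is not given here, so the counts describe the chosen elements only.

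Changed windows came from weaker peaks than the windows of all 4 lists, though not weaker than other discordant windows in the case of the gained ones. The FT peaks over gained windows had a median maxScore percentile of 45.2 and 40.5 within their lists, and the Sham peaks over lost windows 29.2 and 28.6. Windows occupied in all 4 lists lay at 70.8 to 75.4, and the other discordant windows at 39.2 and 36.3 in FT and 36.0 and 34.5 in Sham. By Norm-tag-count the percentiles were 39.5 and 44.8 for the gained windows in FT and 41.2 and 22.2 for the lost windows in Sham. The other discordant windows had the same medians in the same lists, so this tied whole number showed no difference from them. The peaks were also narrower, with a median of 1700 and 1600 bp over gained windows in FT and 1400 and 1300 bp over lost windows in Sham, against 2000 to 2100 bp over common windows. Over the other discordant windows the medians were 1600 and 1400 bp in FT and 1500 and 1400 bp in Sham. Many of the windows named absent were touched by a peak of less than the required cover. A Sham peak reached 45.5% (replicate 1) and 29.6% (replicate 2) of the gained windows, and an FT peak reached 70.4% and 47.1% of the lost windows. Among the best 10000 peaks nearly all changed windows were a difference of rank. Peaks of the whole equal-size Sham lists lay over 99.7 and 99.1% of those gained windows, at a median maxScore percentile of 75.0 and 71.4 against 84.7 and 83.1 in FT. The lost windows there were reached by FT peaks in 99.8 and 99.6% of cases, at 77.7 and 75.3 against 82.3 and 81.7 in Sham.

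By position, gained windows were set apart from common peaks. A window occupied in all 4 lists adjoined 24.8% of the gained and 28.5% of the lost windows, and 35.4% of the other discordant windows. Windows with no other occupied window beside them made up 19.6% of the gained, 37.2% of the lost and 29.5% of the other discordant windows on equal-size lists. On full lists these shares were 26.8, 32.0 and 33.6%, so the lost windows lay below the other discordant windows there. Gained windows formed 3634 runs of 1 window (84.3% of runs), 655 of 2, 22 of 3 and 1 each of 4 and 5. Lost windows formed 2333 runs of 1 window (95.0%), 121 of 2 and 1 of 3. Between chromosomes the gained share of occupied windows ran from 3.07% on chromosome X to 6.16% on chromosome 19, and the lost share from 2.04% on chromosome 10 to 3.43% on chromosome 11. Both kinds were thus spread over the genome.

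The longest gained run was chr19:54115001-54120000, of which FT peaks covered 4500 and 4100 bp and equal-size Sham peaks 0 and 0 bp. The full list of Sham replicate 1 held a peak of 1100 bp there. All 4 lists of PAG and of LC held the whole run, and no Snt list did. The next, chr10:94765001-94769000, was covered over 3051 and 3675 bp in FT and over 0 and 256 bp in Sham, and no PAG list held it whole. Of the 10 longest gained runs 9 were held whole by all 4 PAG lists and 0 by any Snt list. The longest lost run was chr4:143406001-143409000, covered over 2400 and 2200 bp in Sham and over 0 and 0 bp in FT. Run chr3:155183001-155185000 was covered over 1874 and 1689 bp in Sham and over 269 and 0 bp in FT. Run chr6:7234001-7236000 was covered over 1571 and 1515 bp in Sham and over 401 and 302 bp in FT, and all 4 Snt lists held it whole. None of the 10 longest lost runs was held whole by a PAG list. From the longest down, 2, 3, 3, 4, 2, 2, 1, 3, 2 and 0 Snt lists held these lost runs whole. The shares over all gained and lost runs are not given here. The densest 1 Mb bin of gained windows, chr8:30000001-31000000, had 20 gained windows among 74 occupied ones. The Raphe lists occupied 26 and 22 windows of it in Sham and 62 and 52 in FT, and all 20 were active in PAG and in LC and 3 in Snt. The bins chr10:107000001-108000000 and chr3:88000001-89000000 followed with 19 and 17 gained windows. The densest bin of lost windows, chr13:54000001-55000000, had 13 among 178, with 140 and 140 occupied windows in Sham and 136 and 131 in FT, and 12 of the 13 were active in Snt. Gained windows were found in 1457 and lost windows in 1299 of the 2575 bins with Raphe windows, with a median of 2 each in those bins.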

How the data were processed

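Per the labels, H3K27ac libraries of each region were aligned to the rat genome build Rn5; the submitters' processing notes name BWA, with no version. The authors called peaks with DFilter in each library, without pooling replicates. The deposited lists give 2 score columns, maxScore and Norm-tag-count (rounded to whole numbers), and a −log10 p-value column from 4 to 200. The study's DESeq2 test needs read counts, which were not used here, and depth is unknown. The 4 input libraries were not used here.

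Lists were cut by maxScore to 43742 peaks; lists of other regions with fewer were kept whole. Starts were read as counted from 0 and are printed from 1. Occupancy of 1 kb windows (at least 50% covered) was compared over the 3 splits by exact permutation tests (two-sided), which ignored the pairing of replicate numbers. Elements were tested with limma 3.58.1 in R 4.3.3 after quantile normalisation of log2(Norm-tag-count + 1), or on log2 width, with Benjamini-Hochberg adjustment at 0.05. On data simulated with no change and the same spread for all 34961 elements, tied whole numbers made 1952 false calls and spread ties 0. Tied values were therefore spread at random over their rounding step with a fixed seed, a step added to the planned test. With ties kept the data themselves gave 324 calls, fewer than the simulation, so the simulated count is no estimate for these data. Other steps used Python 3.11.15, numpy 2.4.6, pandas 2.3.3 and scipy 1.17.1.

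The loci named were the 10 longest runs of gained and of lost windows, the 5 elements with the lowest p in each direction and the 3 bins of 1 Mb with most gained and most lost windows; a few of each are given in full. The members and lists were chosen with earlier results of these data known, and the PAG, LC and Snt window sets after seeing the data. No annotation of Rn5 was at hand, so loci are given by position, and the tissue was not checked by cell type marker genes. The exact permutation p-values compare the Raphe lists, each from its own pool. The limma p-values rest on the spread between these pools, combined with the spread over all elements tested. The p-values of the sign-flip tests measure the spread between regions, which shared their pools, and not that between pools. The methods of the study state that Sham and FT pools of a replicate number went through the assay side by side, so the numbers pair the lists, though the replicate differences of the 2 treatments hardly correlated over windows (r = 0.04 on full and on equal-size lists). Alternatives were other window sizes and overlaps, stricter and shorter lists, other scores and normalisations, a replicate block and leaving out each list.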

Additional observations from a re-analysis of the deposited data

Results flagged for a closer look

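At the windows held by all Snt lists and by no PAG or LC list, the FT minus Sham difference in Raphe was -17.5 points, with both FT lists below both Sham lists. In 11 other regions both FT lists lay above both Sham lists at the same windows. In 10 of these, LH being the exception, both FT lists also held more of the windows common to all 4 Raphe lists than both Sham lists did, so the shift was not limited to the Snt windows. The differences were 4.24 points in CMA, 5.12 in CGC, 7.66 in MDT, 11.4 in ILC, 12.4 in BLA, 12.7 in PLC, 16.4 in LS, 21.8 in BNST, 26.7 in LH, 27.4 in NaCcore and 35.8 in MS. At the common windows the same 11 regions differed by 5.78 (MDT) to 34.8 points (PLC), and MS by 29.0 points. Sham lists of MS held 27508 and 27292 peaks against 47277 and 46325 in FT. The difference between each of these regions and Raphe was not tested, and 2 lists against 2 set the direction in each.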

How the results depend on the processing

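With 2 lists a group and unknown depth, window counts moved by more than 1.5-fold under several of the rules that set how many windows exist. They stayed within 1.5-fold with peaks of −log10 p of at least 6 (5323 gained and 1690 lost on full lists). On equal-size lists they also did so with the cut by Norm-tag-count (4922 and 2606) and with equal covered length (4240 and 2979). More windows separated the treatments than the other splits did on average, under each alternative run. On full lists gained and lost windows numbered 8889 and 3168 with any overlap, 2581 and 1055 with whole windows covered, 275 and 125 in 5 kb windows, 11305 and 4303 in 500 bp windows, and 1721 and 862 where PAG or LC and Snt were in the same state. On equal-size lists any overlap gave 4294 lost windows, whole windows 2561 and 1072, 5 kb windows 273 and 125, 500 bp windows 10092 and 5318, peak centres 3124 gained windows, the best 10000 peaks 1499 and 1382, the best 5000 peaks 759 and 838, and windows in the same state 1373 and 1121.

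Gained windows active elsewhere made up 99.5, 99.2 and 98.8% when a region needed at least 2 libraries, a Sham library or 50% of its libraries, and lost windows 97.3, 96.3 and 94.1%. Within 5 kb of a common window lay 36.1% of gained, 42.1% of lost and 47.2% of other discordant windows. On full lists 22.7% of gained, 38.0% of lost and 33.3% of other discordant windows adjoined one. By the share adjoining a common window, lost windows thus lay above the other discordant windows on full lists and below them on equal-size lists.

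Norm-tag-count elements called by limma numbered 0 by percentile, 385 without quantile normalisation, 598 with maxScore, 0 per width, 225 on cut lists, 215 with the largest overlap, 324 with ties kept, 177 with another seed and 2348 with the spread following the mean; for width the last gave 87. The cause was not tested. Element lower 4 (chr9:96470918-96472317) turned to 0.036 per width, on the log2 scale.

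Without each list in turn, the log2 ratios ranged from 0.03 to 0.20 for peak number, 0 to 0.09 for width and 0.005 to 0.22 for covered length, and the log2 excess from 0.058 to 0.54 on full and 0.25 to 0.60 on equal-size lists. Gained windows ranged from 7168 to 15005 and lost from 3302 to 7179 on full lists, and from 6517 to 11468 and 4298 to 7571 on equal-size lists. Norm-tag-count elements ranged from 0 to 731 and width elements were 0 each time. The gained minus lost difference in other regions ranged from -1.98 to 1.06 points.

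With replicate pairs as a block, limma called 219 Norm-tag-count elements and 0 width elements, and the block left the window counts at 5686 and 2041 on full and 5019 and 2578 on equal-size lists by construction. It took 1 further named element, chr2:176165202-176166719, past the threshold (limma adjusted p = 0.045) and changed no other call named in the report.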
